A study of Danio rerio with 8 samples.

Results

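The genes nppa and nppb encode the atrial and the B-type natriuretic peptide. They were taken as the 2 entries with these symbols (LL0000020538 and LL0000020539) among 21234 gene entries in a table of transcript counts from zebrafish heart cells. The libraries were made from polyadenylated RNA of dissociated adult ventricles, of cells that the labels call cardiomyocytes. All fish carried the reporter cmlc2:dsred, which makes heart muscle cells fluoresce red. The 4 control libraries have the genotype control, the 4 others the genotype Hmga1a overexpression, and each of the 8 was taken 14 days after tamoxifen. Per the labels tamoxifen served to induce Hmga1a in uninjured hearts, and the comparison asks what Hmga1a, an AT-hook protein of chromatin, changes in such hearts. Neither the promoter behind Hmga1a nor the number of fish per library is stated in the labels used here. The p-values therefore set differences between groups only against the spread of these libraries. That spread may be technical and need not include variation between fish.

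Natriuretic peptides are hormones of heart muscle. They are made as precursors, cut by proteases such as corin, and act on receptors that form cyclic GMP, which in mammals relaxes vessels and makes the kidney excrete salt and water. In the adult mammalian heart ANP is made mainly in the atria, and both peptide genes are switched on in ventricles under load or after injury, where they are common markers of embryonic and border-zone cardiomyocytes. In zebrafish nppa and nppb mark the developing chambers. In RefSeq's annotation of the assembly GRCz12tu, which is not the build of the count table, nppal, nppb, nppa and clcn6 lie next to each other in this order.

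Total counts lay between 49598 (control 2) and 352807 in controls and between 302157 and 572295 with overexpression. Mitochondrial RNA took 56.0% ± 9.35 of them in controls and 31.7% ± 2.98 with overexpression (SD, n = 4). The transcript of the targeted gene, hmga1a, stood at 127.4, 30.2, 75.01 and 58.9 CPM in controls 1 to 4. With overexpression it stood at 80.7, 132.8, 128.6 and 130.6 CPM in libraries 1 to 4, so the groups overlap (log2 fold change 0.47 ± 0.30 SE, adjusted p = 0.177, edgeR). The hmga1a value of control 2 rests on 1 identifier. A higher hmga1a transcript level was thus not shown in this fit, and overexpression below names the label of these libraries. Under alternative settings of the fit hmga1a passed as higher in 2 (log2 fold change 0.80 and 0.85). It did not pass in 17 others (-0.54 to 0.72). The entry eGFP, a fluorescent protein, stood at 128.7 ± 85.1 CPM in controls and 608.6 ± 60.9 CPM with overexpression (SD, n = 4). Its log2 fold change was 2.60 ± 0.26 SE (adjusted p = 1.2e-09, edgeR). What eGFP says about the level of Hmga1a was not tested. CPM is the count scaled to library size, further adjusted between libraries by TMM. Of 20 listed cardiomyocyte markers 13 had enough counts to be tested, but myl7, the gene whose promoter drives the reporter, is listed with 1 identifier over all 8 libraries. Other genes that are usually abundant in heart tissue, such as the endothelial cdh5 and the globin gene hbba1, are listed at 0, so a listed 0 is not read here as absence of a transcript.

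Both natriuretic peptide genes rose with overexpression, and all 4 overexpression libraries lay above all 4 controls. The level of nppa, the atrial peptide gene, was 353.9, 452.5, 284 and 298 CPM in controls 1 to 4. In overexpression libraries 1 to 4 it was 863.7, 840.01, 860.6 and 966.8 CPM. The lowest overexpression library thus lay well above the highest control, control 2. The means were 347.1 ± 76.5 and 882.8 ± 57.0 CPM (SD, n = 4). The fit gave nppa a rise of 2.7-fold (log2 fold change 1.43 ± 0.16 SE, adjusted p = 1.3e-08, edgeR's quasi-likelihood test). Log2 fold changes of genes are those of the fit and not ratios of the mean CPM. They can differ from those ratios in size, and small ones in sign. The gene nppa was among 760 genes that passed as higher, 30.4% of the 2501 tested (59.6% passed in either direction). It had the 332nd highest log2 fold change of the 2501.

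The level of nppb, the B-type peptide gene, was 305.7, 633.6, 364.3 and 283.3 CPM in controls 1 to 4. In overexpression libraries 1 to 4 it was 740.3, 836.7, 848.3 and 742.02 CPM. The groups did not overlap on this scale, on which 25.7% of the tested genes lay apart with overexpression higher. Control 2 stood apart from the other 3 controls and came close to the overexpression libraries. The means were 396.7 ± 161.5 and 791.8 ± 58.7 CPM (SD, n = 4). The fit gave nppb a rise of 2.30-fold (log2 fold change 1.2 ± 0.18 SE, adjusted p = 1.5e-06, edgeR's quasi-likelihood test), and nppb was 455th in the order of log2 fold changes. Without control 2 the log2 fold change of nppb was 1.37 and that of nppa 1.53.

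These levels rest on unequal numbers of molecules. Identifiers (distinct molecular tags) of nppa numbered 123, 15, 53 and 80 in controls 1 to 4. With overexpression the values were 348, 476, 272 and 545 in libraries 1 to 4. For nppb they numbered 107, 21, 67 and 76 in controls 1 to 4. With overexpression the values were 300, 474, 268 and 425 in libraries 1 to 4. Control 2 is the library with the fewest molecules, so its high value for nppb is the least precise of the 8.

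As a share of counts outside the mitochondrial genome, nppa was at 6.42, 9.38, 5.17 and 5.21 per 10000 in controls 1 to 4. With overexpression it was at 13.9, 13.8, 13.4 and 15.8 per 10000 in libraries 1 to 4. The groups stayed apart for nppa, as they did in the upward direction for 19.8% of the tested genes. For nppb the shares were 5.57, 13.1, 6.55 and 4.95 per 10000 in controls 1 to 4. With overexpression the values were 11.9, 13.8, 13.2 and 12.1 per 10000 in libraries 1 to 4. On this scale the nppb groups overlapped, because control 2 lay above overexpression libraries 1 and 4.

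**Figure D1:**
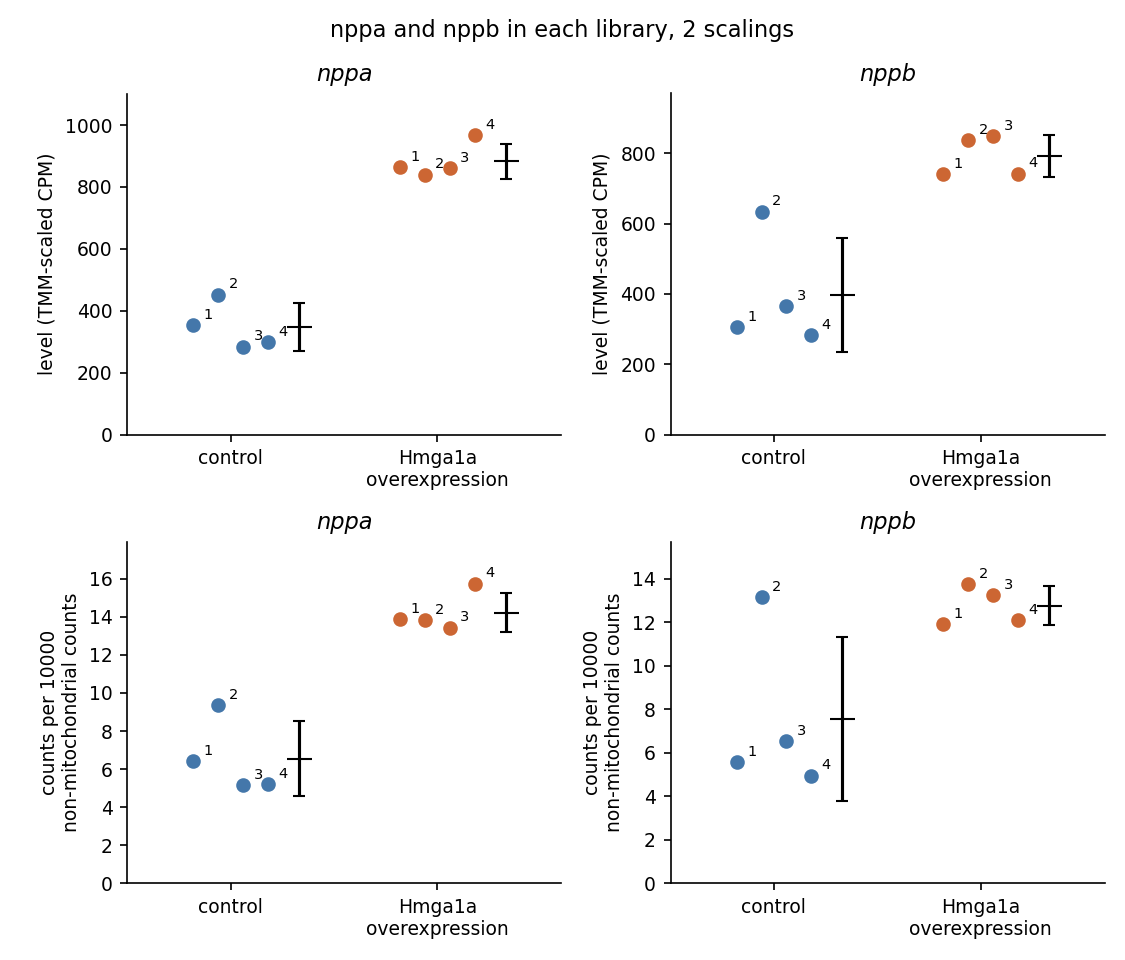
Levels of nppa (left) and nppb (right) in each library, as TMM-scaled CPM (top) and as counts per 10000 non-mitochondrial counts (bottom). Points are libraries with their number, and bars are the mean and SD of 4 libraries. The 4 overexpression libraries of nppa lie above all controls on both scales, while control 2 of nppb reaches 13.1 per 10000 and overlaps the overexpression libraries on the lower scale.

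The authors' deposited table compares 3 libraries a group, without control 2 and overexpression 1, and gives nppa a log2 fold change of 1.80 (FDR 7.8e-19). In the authors' deposited table nppb has a log2 fold change of 1.67 (FDR 1.2e-19). Higher genes make up 14.2% of the 7998 in the authors' deposited table (FDR under 0.05). The test used here gave 1.54 for nppa and 1.40 for nppb in the same 6 libraries (adjusted p = 1.3e-08 and 7.8e-08, edgeR).

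The balance between both genes did not differ beyond the spread of the libraries. The ratio of nppa to nppb counts, which needs no scaling between libraries, was 1.15, 0.714, 0.790 and 1.05 in controls 1 to 4. It was 1.17, 1.00, 1.02 and 1.30 in overexpression libraries 1 to 4. The groups overlap, with controls 2 and 3 lowest and overexpression 4 highest. The mean log2 ratio was 0.30 higher with overexpression (-0.14 ± 0.33 in controls, 0.16 ± 0.18 with overexpression, SD, n = 4), no more than the libraries spread (two-sided exact permutation test, n = 4 per group, p = 0.229, and 0.343 adjusted over 3 ratio measures). That does not show that the ratio was the same in both groups. How fully the transcripts of each gene are counted was not tested. The ratio is therefore compared between libraries and is not read as one peptide gene being more abundant than the other.

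Counted as identifiers, nppa made up 53.5% of the sum of both genes in control 1, 41.7% in control 2, 44.2% in control 3 and 51.3% in control 4. With overexpression it made up 53.7%, 50.1%, 50.4% and 56.2% in libraries 1 to 4. The exact (Clopper-Pearson) 95% interval ran from 25.5% to 59.2% in control 2, from 36 identifiers, and from 53.0% to 59.3% in overexpression 4, from 970. Only the interval of overexpression 4 lay wholly above an equal share of identifiers, which is not read as a difference in transcript amount. The intervals cover counting error only.

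**Figure D2:**
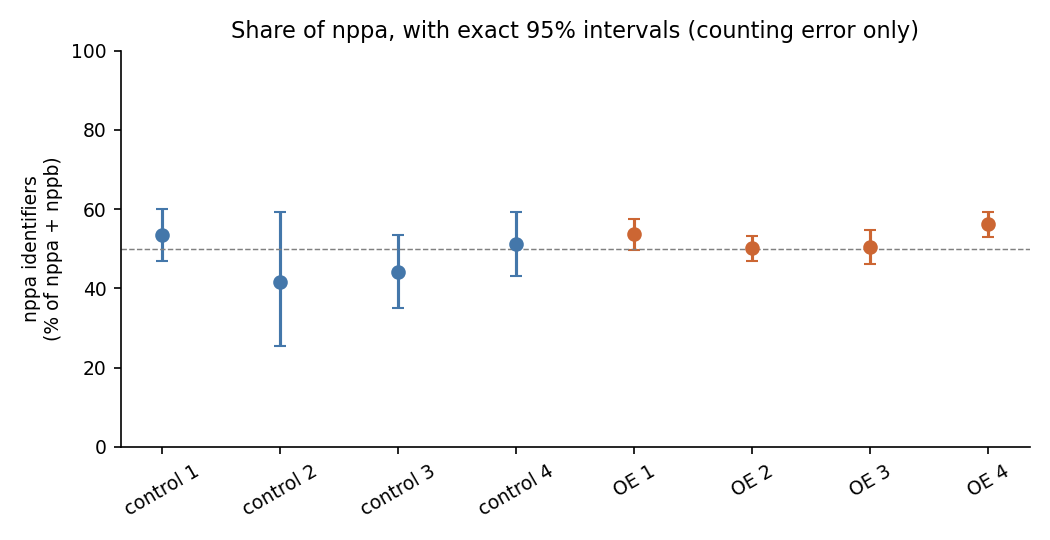
Share of nppa among the identifiers of nppa and nppb together, in percent, for each control and each overexpression (OE) library, with exact 95% intervals for counting error. The dashed line marks equal numbers. The shares run from 41.7% in control 2 to 56.2% in overexpression 4, and the intervals of the groups overlap.

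Measured against the contractile genes of the same library, the rise of both peptide genes was much smaller. Contractile genes encode the filaments and Z-discs of the sarcomere, and those of the list used here (55 with an entry in the table) summed to 414.6 to 726.2 per 10000 non-mitochondrial counts in controls and to 813.3 to 933.1 per 10000 with overexpression. Per 1000 contractile counts, nppa stood at 15.5, 12.9, 10.7 and 10.4 in controls 1 to 4. With overexpression it was at 16.4, 16.9, 14.4 and 19.4 in libraries 1 to 4. Control 1 lay above overexpression 3, so the groups overlap. The mean log2 ratio was 0.45 higher with overexpression, a 1.37-fold difference that did not pass (two-sided exact permutation test, n = 4 per group, p = 0.0571, and 0.171 adjusted over 3 measures).

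For nppb the ratio was 13.4, 18.1, 13.6 and 9.87 per 1000 contractile counts in controls 1 to 4. With overexpression it was 14.1, 16.8, 14.2 and 14.9 in libraries 1 to 4. Control 2 was the highest of the 8 and control 4 the lowest, with all overexpression libraries between them. The mean log2 ratio differed by 0.15, or 1.11-fold (two-sided exact permutation test, n = 4 per group, p = 0.457, also after adjustment). Of all 2501 tested genes 6.76% were higher and 34.5% lower, without overlap, in their ratio to the same sum. The ratio depends on its denominator. The dsRED reporter itself rose from 583.9 ± 38.01 to 3050 ± 761 CPM (2.36 ± 0.17 on the log2 scale, adjusted p = 2.1e-12, edgeR), more than nppa or nppb. Against dsRED nppa was 0.98 and nppb 1.28 lower on the log2 scale with overexpression (-0.98 and -1.28). Both gave p = 0.0286 (exact permutation test, n = 4 per group, the smallest that this design can give, and 0.0429 adjusted). A gene that rose clearly less than dsRED tends to be lower against it. The share of all tested genes that was lower against dsRED was not counted. These p-values are therefore not read as a result particular to nppa and nppb.

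Single contractile genes gave opposite answers. Of 27 tested contractile genes with a count in every library, the ratio of nppa to the gene was higher with overexpression, without overlap, for 9 (33.3%) and lower for 2 (7.41%), against 57.4% and 1.65% of 2000 tested genes of any kind. For nppb it was higher for 5 (18.5%) and lower for 3 (11.1%), against 40.5% and 2.75%. The median difference in log2 ratio over the 27 genes was 0.14 for nppa and -0.15 for nppb.

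The largest gains were against genes that fell. Against myh6, an atrial myosin heavy chain, the log2 ratio rose by 5.23 for nppa and 4.94 for nppb. Against the giant sarcomere spring titin it rose by 3.32 and 3.03 (ttn.2) and by 3.02 and 2.72 (ttn.1). Near-identical copies may make the counts of titins and myosin heavy chains uncertain, which was not tested. Against actn2b, the alpha-actinin of the Z-disc, the gain was 0.80 for nppa and 0.51 for nppb, without overlap in either. Against the troponin C gene tnnc1a, which rose from 1305 ± 141 to 4949 ± 305 CPM (1.94 ± 0.14 on the log2 scale, adjusted p = 2.9e-12, edgeR), nppa changed by -0.56 and nppb by -0.85, again without overlap. Against tnni4a, a troponin I gene (1.64 ± 0.15 on the log2 scale), the changes were -0.23 and -0.53, and against the cardiac actin gene actc1a (1.73 ± 0.16) they were -0.34 and -0.63, with overlap. Against myh7 the changes were -0.54 and -0.84. Against the cardiac troponin T gene tnnt2a (0.12 and -0.17) and the troponin I gene tnni1b (0.14 and -0.15) the groups overlapped. The genes tnnc1a, actn2b and tnnt2a used over 50% of the possible identifiers in some library. Their counts thus depend on the correction for identifiers used more than once. Before that correction the log2 fold changes were 1.62 for tnnc1a, 0.27 for actn2b, 1.40 for nppa and 1.18 for nppb (edgeR).

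**Figure D3:**
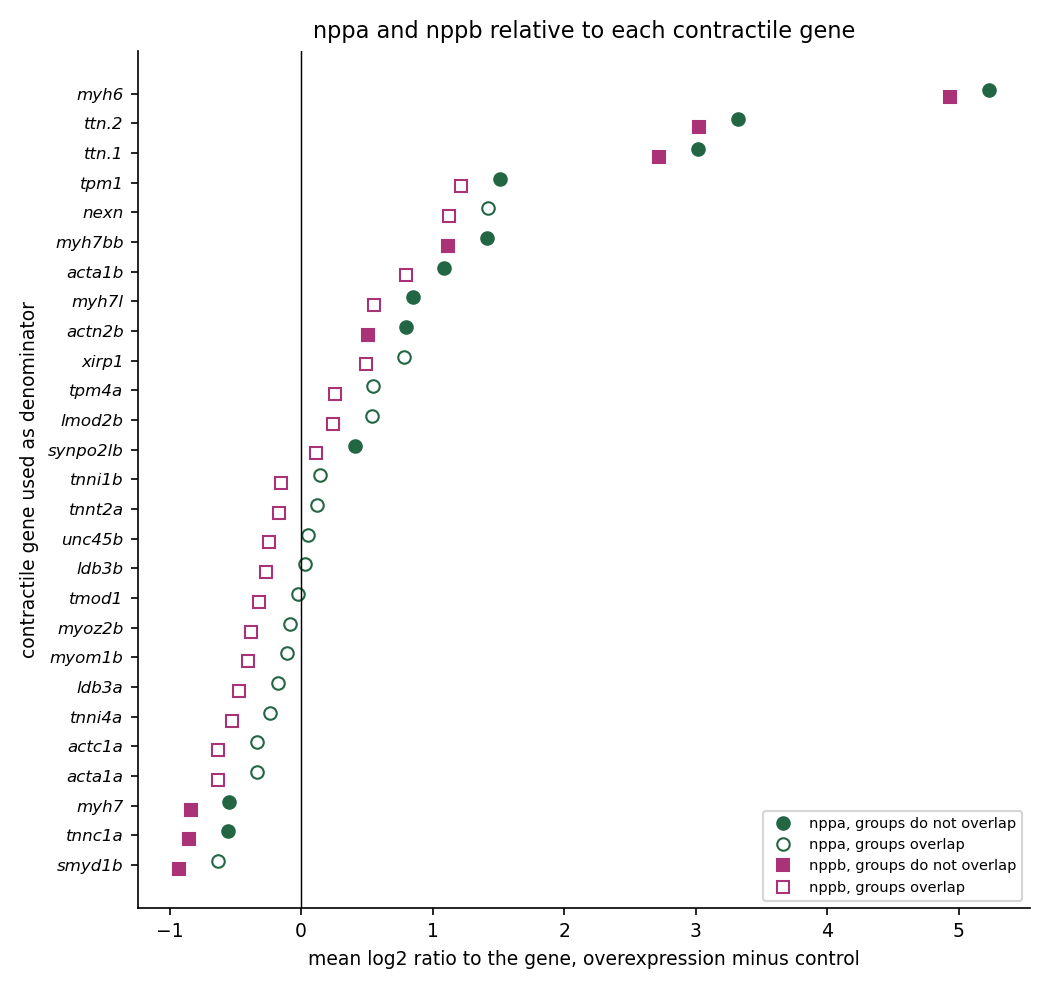
Change of the mean log2 ratio of nppa (circles) and nppb (squares) to each of 27 contractile genes, overexpression minus control, ordered by the value for nppa. Filled symbols mark ratios whose groups do not overlap. The changes run from -0.63 (nppa to smyd1b) and -0.93 (nppb to smyd1b) to 5.23 and 4.94 (to myh6), with most symbols between -1 and 1.

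The third peptide gene of the table, nppc, went the other way. It encodes C-type natriuretic peptide, which in mammals is made by vascular endothelium. Its level was 365.2, 241.4, 230.4 and 334.8 CPM in controls 1 to 4. With overexpression the values were 33.2, 89.6, 131.7 and 62.8 CPM in libraries 1 to 4. Every overexpression library lay below every control. The means were 292.9 ± 67.2 and 79.3 ± 41.8 CPM (SD, n = 4; log2 fold change -1.98 ± 0.28, adjusted p = 7.6e-07, edgeR), against 29.2% of tested genes that passed as lower and 17.6% whose overexpression libraries lay below all controls. In the authors' deposited table nppc has a log2 fold change of -1.46 (FDR 3.3e-05). Markers of endothelial cells fell in the same libraries. The 25 with an entry summed to 36.1 to 44.3 per 10000 non-mitochondrial counts in controls and 8.52 to 11.5 with overexpression, 8 of 9 tested members were lower, and cdh5, cldn5a, plvapa, ramp2 and mrc1a are listed at 0. Their part in the fall of nppc was not tested.

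The protease gene corin, whose product cuts the ANP precursor on the surface of mammalian cardiomyocytes, rose. It was at 25.5, 0, 21.4 and 25.8 CPM in controls 1 to 4. With overexpression it was at 75.9, 73.04, 42.9 and 64.5 CPM in libraries 1 to 4. The overexpression libraries lay above controls 1, 3 and 4, while the 0 in control 2 rests on too few counts to place that library. There 1 count is worth 30.2 CPM, and a count of 0 allows up to 90.5 CPM (3 counts), more than in any overexpression library. Its log2 fold change was 1.46 ± 0.40 (adjusted p = 0.00216, edgeR), from 0 to 9 identifiers in a control and 14 to 44 in an overexpression library. Scaled on contractile genes, the change of corin was 0.48 and did not pass.

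Of 33 other genes listed for the pathway, 18 had an entry, 12 a count in any library, and 3 enough counts to be tested. These 3 were nppc, corin and vaspb, an actin-binding protein of the family phosphorylated by cyclic GMP-dependent kinase, which was at 30.3 ± 20.4 and 31.4 ± 20.1 CPM (log2 fold change -0.19 ± 0.46, adjusted p = 0.738, edgeR). The receptor genes npr1b and npr2 are listed with 1 and 0 identifiers over all 8 libraries. The neighbouring gene clcn6, a chloride transporter of endosomes and lysosomes, had 5 identifiers in all, beside 1912 of nppa and 1738 of nppb, too few to be tested.

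**Figure D4:**
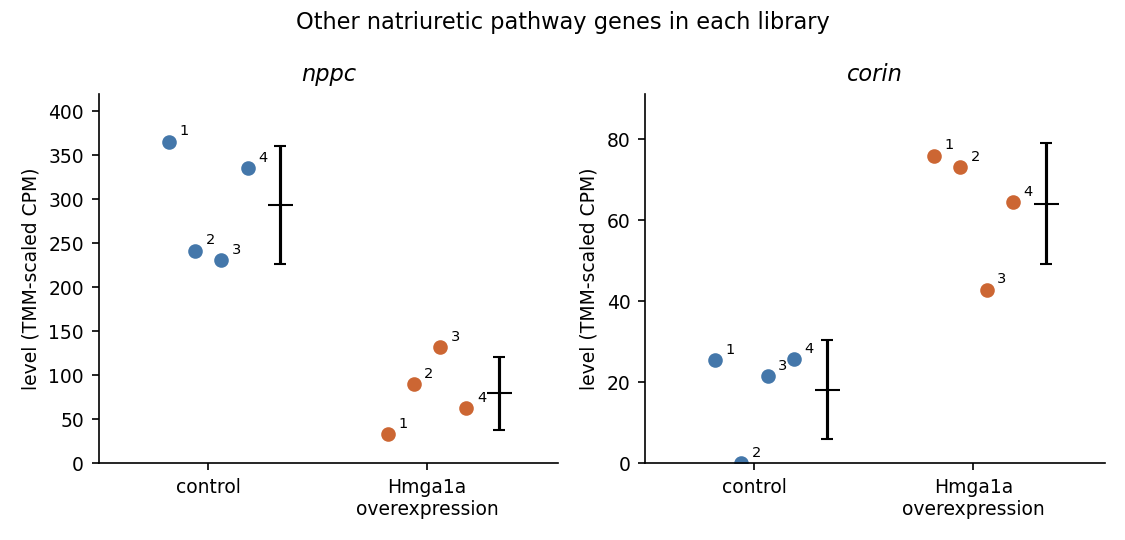
Levels of nppc (left) and corin (right) in each library, as TMM-scaled CPM. Points are libraries with their number, and bars are the mean and SD of 4 libraries. For nppc the overexpression libraries lie between 33.2 and 131.7 CPM, below all controls, and for corin between 42.9 and 75.9 CPM, above controls 1, 3 and 4, while the 0 of control 2 allows up to 90.5 CPM.

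Genes of transcription factors and cofactors known to act on natriuretic peptide promoters did not move as one group. Some rose with nppa and nppb, some fell and others did not pass. Of 14 tested genes of this list 6 rose and 2 fell. Their median was 0.66 on the log2 scale, beside 30.4% higher, 29.2% lower and a median of 0.01 over all tested genes. The homeobox gene nkx2.5 rose from 97.6 ± 56.0 to 212.1 ± 23.7 CPM (1.48 ± 0.26, adjusted p = 1.7e-05) and the T-box gene tbx5a from 43.4 ± 32.5 to 88.8 ± 24.6 CPM (1.46 ± 0.37, adjusted p = 0.0012, edgeR). The T-box genes tbx20 (0.93 ± 0.25) and tbx5b (1.34 ± 0.47), the GATA factor gene gata6 (1.58 ± 0.50) and the coactivator gene myocd (1.76 ± 0.47) also passed edgeR's test. The mean CPM of tbx5b differed less than its fitted change, at 34.4 ± 37.7 in controls and 49.3 ± 15.4 with overexpression. The groups overlapped in CPM for tbx5a, tbx5b and gata6. The genes gata5 (0.69 ± 0.38, adjusted p = 0.118), hand2 (0.58 ± 0.33, adjusted p = 0.125) and mef2ca (0.63 ± 0.40, adjusted p = 0.167) did not. Control means of gata6 (18.4 ± 20.8 CPM) and myocd (10.6 ± 7.53 CPM) lay below the 30.2 CPM that 1 count is worth in control 2. The 2 that fell were klf13, a Krüppel-like factor (194.7 ± 93.5 to 46.05 ± 11.1 CPM, -2.29 ± 0.29, adjusted p = 8.6e-08), and tead1b, a DNA-binding partner of YAP (82.7 ± 12.3 to 14.8 ± 9.12 CPM, -2.55 ± 0.42, adjusted p = 5.6e-06, edgeR). The genes gata5, hand2 and mef2ca passed with library totals alone (adjusted p from 0.0218 to 0.0452). In addition hand2 passed without control 1 (1.04, adjusted p = 0.0305) and gata5 without control 3 (1.00, adjusted p = 0.0462, edgeR). With libraries scaled on contractile genes 0 of the 14 passed as higher and 5 as lower, beside 6.24% higher and 53.9% lower of all tested genes. The call of gata6 was lost without control 1 (1.25, adjusted p = 0.0666) and without control 4 (1.26, adjusted p = 0.0524). That of tbx5b was lost without control 1, control 3 or overexpression 2 (adjusted p from 0.0571 to 0.111), with the replicate block (1.07, adjusted p = 0.0709) and in DESeq2 (1.26, adjusted p = 0.0532).

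Apart from nppa and nppb, 19 genes listed for border-zone or embryonic heart muscle were tested, of which 9 rose and 3 fell (median 0.58 on the log2 scale), beside 30.4% higher, 29.2% lower and a median of 0.01 over all tested genes. The lists share genes. Among these 19, nkx2.5, tbx5a, tbx20, hand2 and mef2ca are also in the list of transcription factors and cofactors. The gene myh7l is also in the contractile and ventricular lists, and xirp1 in the contractile list. Desmin (desma), the intermediate filament of muscle, rose by 1.65 ± 0.19 and krt18a.1, an epithelial keratin, changed by -1.14 ± 0.17 on the log2 scale (adjusted p = 2.6e-08 and 1.4e-06, edgeR). The other 2 that fell, flna (-1.39 ± 0.32), an actin-linking filamin, and hbegfa (-0.997 ± 0.41), a growth factor of the EGF family, were named after their values were seen. Scaled on contractile genes, 1 of the 21 tested genes of the list with nppa and nppb was higher and 8 were lower, beside the same 6.24% and 53.9%. The call of hbegfa was lost in 10 alternatives, among them without control 3 (-0.42, adjusted p = 0.426). Genes of the atrium did not move as one group with nppa. Of 5 tested, bmp10l (1.81 ± 0.42), a BMP of the trabeculated heart, and tbx5a rose, while myh6 fell from 185.2 ± 135.3 to 11.8 ± 5.18 CPM (-3.996 ± 0.43, adjusted p = 2.8e-08, edgeR; -3.26 without control 1, the change still past the threshold). These shares, of few genes, stand beside the same 30.4% and 29.2%. The control mean of bmp10l, 16.5 ± 11.7 CPM, lay below the 30.2 CPM that 1 count is worth in control 2. Both tested ventricular genes, the myosin heavy chains myh7 (2.04 ± 0.21) and myh7l (0.51 ± 0.14), rose. The call of myh7l was lost with the stricter filter (0.23), spike-in scaling (0.72), whole identifiers (0.31) and thinning (-0.058), with adjusted p from 0.0562 to 0.771, and it was lower when scaled on contractile genes (-0.42, adjusted p = 0.0306, edgeR).

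Profiles over the 8 libraries were compared with those of nppa and nppb. Closeness was the root mean square difference in log2(CPM + 1) after each gene was centred on its own mean. The comparison held 814 tested genes with a mean of at least 100 CPM. Genes with a clone or placeholder name as symbol were left out, so ranks hold among these 814. Nearest to nppa were atp5mc3a of ATP synthase (0.14), anxa2a, an annexin (0.15), pgk1 of glycolysis (0.15), suclg1 of the citric acid cycle (0.15) and pygmb, a glycogen phosphorylase (0.16), beside a median of 0.69 for all 814. Nearest to nppb were vamp3 of vesicle fusion (0.14), pkig, an inhibitor of protein kinase A (0.14), acadm of fatty acid oxidation (0.14), dlst of the citric acid cycle (0.14) and the tubulin gene tuba1b (0.17), beside a median of 0.70. These 10 genes were chosen for profiles like those of nppa or nppb, so their own log2 fold changes (1.05 to 1.65) follow from that choice. The peptide genes were at a distance of 0.28 from each other, which placed nppb 61st from nppa and nppa 45th from nppb.

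Sums of marker RNA of fibroblasts and epicardium and of leukocytes were lower in all overexpression libraries than in any control. Those of smooth muscle overlapped between the groups, as did those of erythrocytes and thrombocytes. The latter lay at 1.18 to 2.46 per 10000 non-mitochondrial counts in controls and 1.07 to 4.18 with overexpression (1 tested member, higher). Calls of members stand beside 30.4% higher and 29.2% lower of all tested genes. Markers of fibroblasts and epicardium summed to 67.4 to 92.2 per 10000 non-mitochondrial counts in controls and 19.0 to 23.7 with overexpression (5 of 5 tested members lower). Their member krt18a.1 is also in the border-zone list. Markers of leukocytes summed to 155.9 to 270.6 and 57.3 to 77.3 (13 of 14 lower), and those of smooth muscle to 8.26 to 25.1 and 23.5 to 31.5 (3 of 3 higher, of which acta2 and tagln are also in the border-zone list). Markers of cardiomyocytes summed to 219.3 to 303.5 per 10000 in controls and 407.7 to 477.8 with overexpression, without overlap. Of 13 tested cardiomyocyte markers 9 were higher and 4 lower. In such bulk samples a larger share of cells that express nppa and nppb and more of their RNA per cell cannot be told apart. The part of the other cell types' markers, and of mitochondrial RNA, in the rise of both genes was not tested.

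Scaling decided how large the rise appeared. When contractile genes set the scale, the median over all tested genes moved by -0.99 (log2), and 6.24% of genes passed as higher. The log2 fold change was then 0.44 ± 0.20 for nppa (adjusted p = 0.0592) and 0.20 ± 0.20 for nppb (adjusted p = 0.400, edgeR), so neither passed. With libraries scaled on spike-in RNAs, of which control 2 held 6 counts, it was 1.63 ± 0.36 for nppa and 1.29 ± 0.36 for nppb (adjusted p = 7.4e-05 and 0.0018, edgeR). With every library thinned to the total of control 2, in 1 random draw, nppa still passed (1.07 ± 0.28, adjusted p = 0.00115) and nppb did not (0.23 ± 0.26, adjusted p = 0.462, edgeR), among 516 genes tested, of which 25.4% passed as higher.

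**Figure D5:**
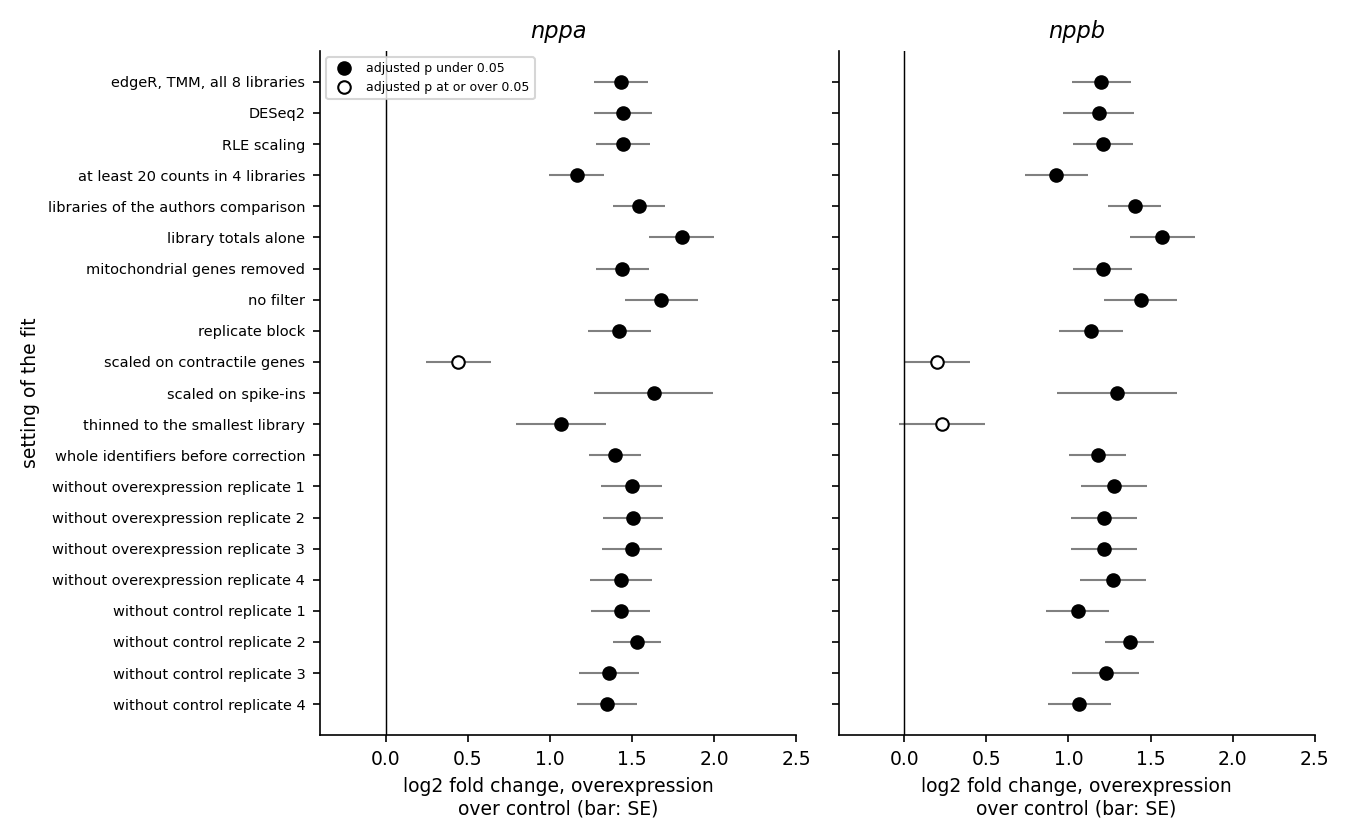
The log2 fold change of nppa (left) and nppb (right), overexpression over control, with its SE, in the edgeR fit used here and under 20 alternatives. Filled circles have an adjusted p under 0.05. All values lie above 0, and the open circles are the scaling on contractile genes (0.44 for nppa, 0.20 for nppb) and, for nppb, thinning to the smallest library (0.23).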

How the data were processed

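The authors deposited estimated counts per gene for 8 libraries. They are identifier counts corrected for identifiers used more than once: with 4096 identifiers, 100% of 62181 non-zero values invert to whole identifiers (tolerance 0.01). Per the submitters' processing notes, the build was danRer11 and edgeR was used. Aligner, annotation and strand setting: not given in the sources used here. A comparison the authors deposited holds log2 fold changes and, per the file headers, p-values and FDR. Its count columns equal controls 1, 3 and 4 and overexpression 2, 3 and 4.

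Counts were rounded, 67 spike-ins left out, genes kept by filterByExpr (minimum count 10), and libraries compared by edgeR 4.0.16 (R 4.3.3; TMM, robust quasi-likelihood test, Benjamini-Hochberg adjustment over all genes tested, threshold 0.05). Ratios within a library were compared by exact permutation over 70 assignments (smallest p 0.0286) in scipy 1.17.1. Alternatives included DESeq2 1.42.0. The fit was tested on simulated data with a smaller share of changed genes than here, which does not test the scaling of these libraries. Totals per library (49598 to 572295) limit precision.

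The members, lists and tests were chosen with earlier results of these data known. Named are all tested natriuretic pathway genes, up to 4 genes with the smallest p of each other list, and the 5 nearest profiles. Others (tbx20, tbx5b, gata6, myocd, gata5, hand2, mef2ca, actn2b, tnnt2a, tnni1b, ttn.1, clcn6 and the receptors) were named after their values were seen. The gene osgn1, at 118.2 ± 70.3 and 104.9 ± 15.0 CPM (log2 fold change 0.20 ± 0.31, adjusted p = 0.604), had been listed for the pathway in error and was set aside.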

Additional observations from a re-analysis of the deposited data

Results flagged for a closer look

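The corin level of 0 CPM in control 2 lay far from the other 3 controls (21.4 to 25.8 CPM). In that library of 49598 counts 1 count is worth 30.2 CPM and a count of 0 allows up to 90.5 CPM, so this 0 cannot be told apart from the level of the other controls. Such a gap is taken to occur by chance in about 1 of 20 groups, and whether that rate holds for a count of 0 was not tested. Among the levels of nppa, nppb, nppc and corin and the 3 ratio measures, no other value stood apart in this way within its group of 4.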

How the results depend on the processing

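The rise of nppa passed in 19 of 20 alternatives and that of nppb in 18, with log2 fold changes of 0.44 to 1.80 and of 0.20 to 1.57. The fall of nppc passed in all 19 in which it was tested. Without 1 library the changes of nppa lay between 1.35 and 1.53 and those of nppb between 1.06 and 1.37. With the replicate block they were 1.42 and 1.14, both past the threshold. Same-numbered libraries did not deviate together (correlations from -0.04 to 0.02). That gives no sign of pairing by number, but at such low counts it cannot exclude pairing. The block left the ratios at 0.30 (nppa to nppb), 0.45 and 0.15 (each to contractile genes), with sign-flip p that cannot go below 0.125.

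Of tested genes 760 passed as higher and 730 as lower, 964 and 479 with library totals alone, 723 and 404 with spike-in scaling, 929 and 1030 with no filter, 482 and 536 with the stricter filter, 131 and 154 after thinning and 156 and 1348 with contractile scaling. The median of all genes shifted by 0.37, 0.30 and -0.15 on the log2 scale with the first 3 of these.

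Scaled on contractile genes (nppa 0.44, nppb 0.20) the lists had 0 higher and 2 lower (natriuretic pathway, osgn1 included), 0 and 5 (regulators), 8 and 7 (contractile), 1 and 8 (border-zone), 0 and 2 (atrial), 1 and 1 (ventricular) members, and 0 immediate early genes higher. After thinning (nppb 0.23) 0 natriuretic genes were higher and 0 lower, 0 and 0 regulators, 12 contractile and 4 border-zone genes higher, 0 and 0 atrial genes, 1 ventricular gene higher, and 0 and 6 immediate early genes, with 516 genes tested. The genes nppc, corin, nkx2.5, tbx5a and tbx20 were not among those 516, so no call could be made for them. With at least 20 counts in 4 libraries 0 natriuretic genes were higher, 3 regulators higher and 1 lower, 1 atrial gene higher and 0 lower, 1 ventricular and 0 immediate early genes higher, since fewer genes were tested. The higher natriuretic genes numbered 2, with ide, when mitochondrial genes were removed, with no filter and with whole identifiers, and 1 to 2 without 1 library. Ventricular genes higher numbered 1 with spike-in scaling and with whole identifiers.

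Scaled on contractile genes, osgn1 (-0.80), tbx20 (-0.045), actn2b (-0.35), myh7l (-0.42) and jund (-0.41) were negative, and after thinning actn2b (-0.15) and myh7l (-0.058). The cause was not tested beyond the scaling itself. Without titins and myosin heavy chains in the denominator the ratio to contractile genes was 0.20 for nppa and -0.093 for nppb. Neither passed (p = 0.286 and 0.686, exact permutation test, n = 4 per group, 0.429 and 0.686 adjusted). Against dsRED the ratios were -0.98 (nppa) and -1.28 (nppb). With whole identifiers, with a geometric mean and without genes over 50% of the identifiers the nppa ratio was 0.68, 0.65 and 0.63, each at p = 0.0286 in the exact permutation test (n = 4 per group) but 0.0857 adjusted.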

Other observations

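Immediate early genes, which respond to stress and to cell dissociation within minutes, were lower as a list while nppa and nppb were higher. Of 16 tested, 1 rose (jund, 0.57 ± 0.16 on the log2 scale) and 12 fell (median -1.65), beside 30.4% higher and 29.2% lower of all tested genes. The genes of AP-1 subunits junba (1499 ± 89.0 to 385.1 ± 39.1 CPM, -1.96 ± 0.14), junbb (-2.40 ± 0.25) and fosl2 (-1.92 ± 0.21) and the phosphatase gene dusp1 (-1.99 ± 0.22) fell, each past edgeR's test (highest adjusted p 1.0e-08). The list summed to 137.7 to 188.2 per 10000 non-mitochondrial counts in controls and 64.5 to 73.8 with overexpression.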
